A study of Mus musculus with 16 samples.

Results

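The genes described here make and regulate the blood clot. They are a list of 36 genes chosen by name: the fibrinogen chains and clotting factors, their inhibitors, the plasmin system that dissolves fibrin, and 2 enzymes of the vitamin K cycle. The array annotation matched 34 of the 36 by symbol, out of 19505 genes measured. Cpb2, which makes an inhibitor of fibrinolysis, and Klkb1, which makes plasma prekallikrein, are not analysed here. Where a gene had several probe sets, the one with the highest mean was used.

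The samples were 16 liver biopsies of C57BL/6 mice, 8 from control mice and 8 from mice of a nonalcoholic steatohepatitis (NASH) model, a condition in which a fatty liver is also inflamed. All 16 were profiled as total RNA on arrays of 1 colour. The labels do not state how the model was induced, nor age, sex or time of collection, and the title names a drug target but no drug-treated group is among these samples. Samples keep the numbers of their labels, so that the model group holds samples 1a and 1b. Nothing in the labels says that each sample came from a separate animal, so the p-values measure the spread between samples, which may be partly technical.

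The liver makes most proteins of the clotting cascade, and hepatocytes secrete them into plasma as inactive precursors. Tissue factor with factor VII starts the cascade, factors IX, XI and X carry it to thrombin, and thrombin turns fibrinogen into fibrin, which factor XIII crosslinks. Antithrombin, protein C and tissue factor pathway inhibitor hold the cascade back. Plasmin, cut from plasminogen by the tissue and urokinase activators, dissolves the clot. Several of these proteins bind membranes only after vitamin K-dependent carboxylation by the enzyme that Ggcx encodes.

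The NASH model samples had higher RNA levels of the plasminogen activators Plau and Plat, the urokinase receptor Plaur, the protein C receptor Procr and, by a smaller margin, tissue factor, F3. They had lower levels of the fibrinogen chains, of factors VII, IX, X and XI, of plasminogen and of Ggcx. Of the 34 measured members, 5 rose, 15 fell and 14 did not pass the test, limma's moderated test, whose p-values were adjusted by Benjamini-Hochberg over every measured gene and called under 0.05. Over all 19505 genes the same test called 13.2% higher and 13.4% lower. The members were brighter than most genes, with a median control level of 9.11 beside 3.96 for all genes. Without the dimmest 40% of genes, 2423 of 11703 genes were called higher and 23.5% lower. That fit held 33 of the members, without F13a1, and their calls were the same except that F8, Serpind1 and Vkorc1 were also called lower. The members had a median log2 fold change of -0.18, beside -0.04 for all genes. In 9 members every NASH model sample lay below every control (3.89% of all genes), and in 3 every NASH model sample lay above every control (5.65% of all genes). Only Plau, Plaur, Plat and Procr were called with a difference of at least 2-fold, and all 4 were higher, against 4.02% of all genes that were called at least 2-fold higher. The calls of these 4 genes and of 6 genes that fell (F7, F9, F10, F11, Tfpi2 and Ggcx) were the same under each of the 28 alternative analyses.

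**Figure D1:**
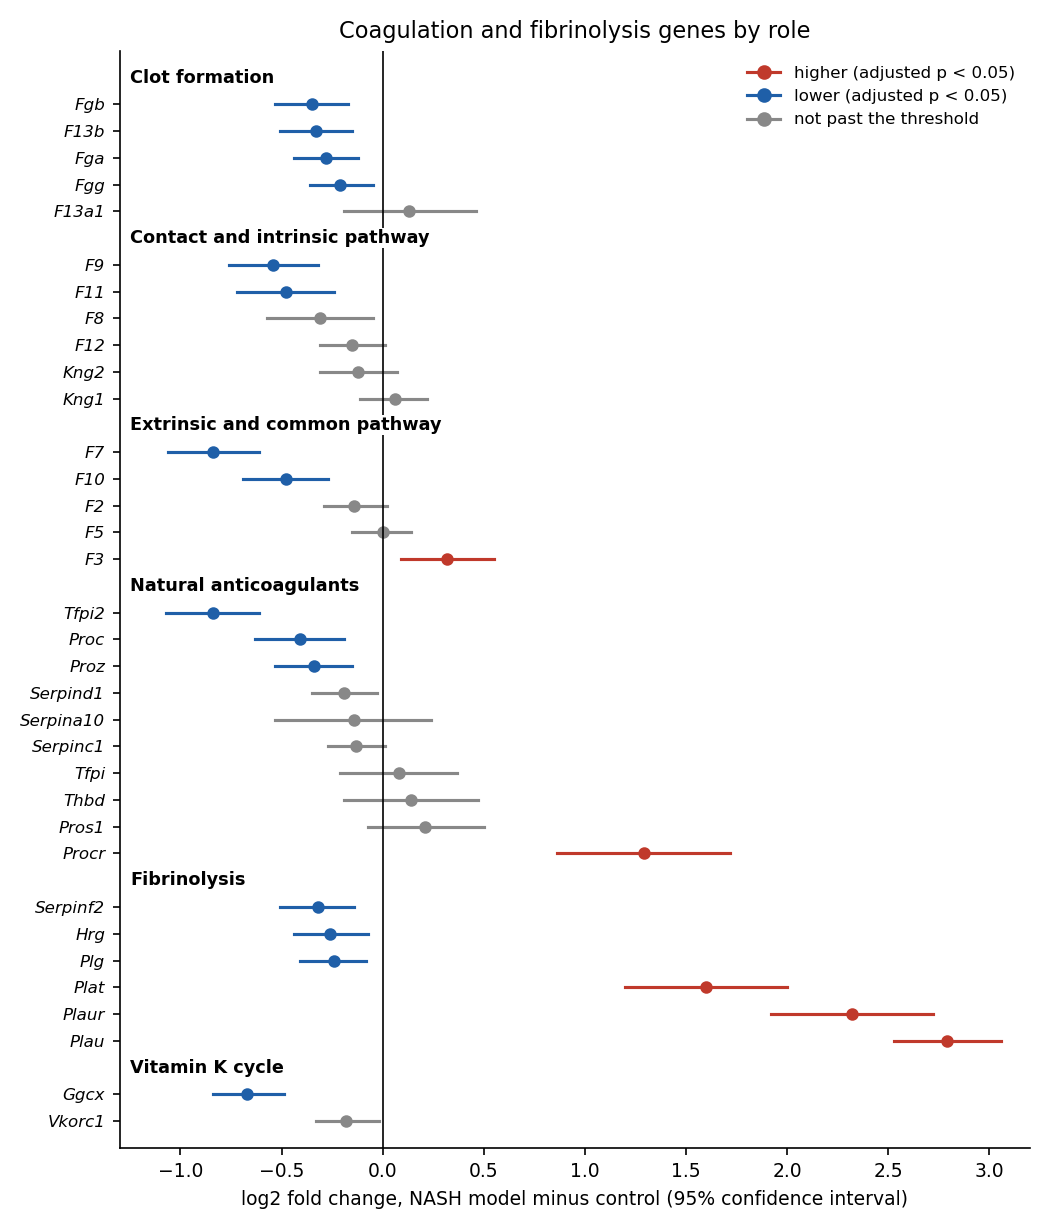
Log2 fold change (NASH model minus control) of the 34 measured members, grouped by role, with 95% confidence intervals from limma that are not adjusted for multiple tests and 8 samples per group. Plau, Plaur, Plat and Procr lie between 1.29 and 2.79, while the 15 genes that fell lie between -0.84 and -0.21.

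The direction went with the cell type in which a gene is mainly made, as assigned from general knowledge and not from these samples. Of 22 measured members made mainly by hepatocytes, 13 fell and 0 rose at the adjusted threshold, with a median of -0.25. Of 10 made mainly by other cells, 5 rose and 1 fell, with a median of 0.23. The remaining pair, Ggcx and Vkorc1, is made by most cells, and Ggcx fell. Hepatocyte members were also brighter, with a median control level of 10.21, beside 3.68 for members of other cells. No test compared these groups of genes or separated cell source from brightness. In whole liver tissue, fewer cells of a type and less RNA per cell cannot be told apart.

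The fibrinogen genes Fga, Fgb and Fgg lie side by side on chromosome 3 with 0 protein-coding genes between neighbours, and all 3 fell. The 200 bases before their annotated starts are shown because the members that moved together include all 3 chains. They are RefSeq sequences of GRCm38.p6, written 5′ to 3′ on the strand of the gene: Fga at chr3:83025953-83026152 on the plus strand, Fgb at chr3:83049864-83050063 on the minus strand, and Fgg at chr3:83007524-83007723 on the plus strand. Capitals mark matches, on either strand, to the C/EBP core TTGCNNAA or the IL-6 response element CTGGGAA.
Fga: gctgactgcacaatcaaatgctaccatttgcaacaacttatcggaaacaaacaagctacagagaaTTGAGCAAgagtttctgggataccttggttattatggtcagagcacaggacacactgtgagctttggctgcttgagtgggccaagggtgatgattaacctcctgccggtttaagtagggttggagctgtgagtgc
Fgb: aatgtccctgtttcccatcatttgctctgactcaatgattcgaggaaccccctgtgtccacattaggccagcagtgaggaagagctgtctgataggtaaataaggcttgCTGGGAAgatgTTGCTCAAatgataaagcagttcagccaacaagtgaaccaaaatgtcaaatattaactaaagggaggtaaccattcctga
Fgg: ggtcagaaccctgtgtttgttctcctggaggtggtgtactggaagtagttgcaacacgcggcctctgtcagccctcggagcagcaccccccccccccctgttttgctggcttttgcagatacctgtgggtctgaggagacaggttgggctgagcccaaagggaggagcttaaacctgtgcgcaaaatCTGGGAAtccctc
In Fga, the window holds 1 match, a C/EBP core beginning at position -135 relative to the start. In Fgb, the IL-6 element begins at -91 and the C/EBP core at -80. In Fgg, the match is an IL-6 element beginning at -13. The motifs did not overlap each other in these windows.

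A promoter entry was found for 27 of the 34 measured members, and 250 bases before each start were searched for the same motifs and for the HNF4 element CAAAGTC. The C/EBP core was in 6 of the 13 lower members with an entry (46.2%): Fga, Fgb, F9, F11, Hrg and Ggcx. It was in 9.55% of all 27025 promoters. It was also in 2 of the 3 higher members with an entry, Plaur and Procr. The IL-6 element was in 3 of the 13 (23.1%), against 9.08% of all promoters. The HNF4 element was in 0 of the 27 members and in 3.8% of all promoters. These are counts of letters and not of bound sites, and no test was made of them.

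Fga, which encodes the fibrinogen alpha chain, ran from 12.04 to 12.39 in control samples (median 12.21) and from 11.83 to 12.07 in the NASH model (median 11.90), on the log2 intensity scale used throughout. It fell by 17.5% (log2 fold change -0.28 ± 0.08 (SE), limma adjusted p = 0.0098), and 7 of 8 NASH model samples lay below the lowest control. Fgb, the beta chain, ran from 11.42 to 11.91 in controls (median 11.68) and from 11.21 to 11.36 in the NASH model (median 11.29). Its groups did not overlap, and it fell by 21.7% (-0.35 ± 0.09, limma adjusted p = 0.0047). Fgg, the gamma chain, ran from 12.08 to 12.32 in controls (median 12.20) and from 11.87 to 12.16 in the NASH model (median 11.98). It fell by 13.3% (-0.21 ± 0.07, limma adjusted p = 0.042), and its groups overlapped. Fga and Fgg, each with a control mean of 12.19, lie near 12.67, the brightest value tested, where the scale may not fully resolve differences between samples. Of the 3 calls, the one on Fgg rests most on single samples. It was lost with NASH model samples 1a and 1b averaged (adjusted p = 0.052), and when any of control samples 1, 3, 4, 6, 7 and 9 or NASH model samples 1a, 1b, 2, 3, 4, 5 and 6 was left out, with adjusted p of 0.051 to 0.081 over these 13 fits.

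Within the control group, the 3 chains varied by sample. Control samples 5, 6 and 10 had the lowest Fgb, at 11.46, 11.42 and 11.42, while the other 5 controls had 11.68 to 11.91. The same 3 controls had the lowest Serpina10, which encodes the protein Z-dependent protease inhibitor, at 9.10, 9.18 and 9.05, beside 9.78 to 10.56 in the other 5. Fga and Fgb were correlated over the 8 controls (Pearson r = 0.80, exact permutation p = 0.016, adjusted 0.032 over 6 relations), although the rank correlation did not pass (Spearman rho = 0.63, exact permutation p = 0.10, adjusted 0.20). Fga and Fgg were correlated over the controls (r = 0.83, exact permutation p = 0.012, adjusted 0.032; rho = 0.89, p = 0.0056, adjusted 0.034). Without controls 4 and 5, those farthest from the median of Fga, r was 0.76 and 0.83. For Fgb and Fgg the control values were r = 0.57 (exact permutation p = 0.14, adjusted 0.21) and rho = 0.45 (p = 0.26, adjusted 0.31), with r = 0.40 without controls 6 and 10.

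Over the 8 NASH model samples, Fga and Fgg had r = 0.81 (exact permutation p = 0.011, adjusted 0.032) and rho = 0.64 (p = 0.10, adjusted 0.20). Without NASH model samples 1a and 7, r was 0.29, so this relation rests on those samples. Fga and Fgb had r = 0.48 (exact permutation p = 0.23, adjusted 0.28) and rho = 0.46 (p = 0.25, adjusted 0.31), and r = 0.34 without the same pair. Fgb and Fgg had r = 0.42 (exact permutation p = 0.29, adjusted 0.29) and rho = 0.19 (p = 0.64, adjusted 0.64), and r = 0.15 without samples 2 and 7. All tests were two-sided. The scaling of the arrays moves these values. With each array centred on 18 hybridization control probe sets (spike-in centring), the NASH model r was 0.98 for Fga and Fgb and 0.97 for Fgb and Fgg. That centring shifts every gene of an array by the same amount. The hybridization control means were 9.815 in NASH model sample 7 and 9.866 in 1a, beside 10.022 to 10.161 in the other NASH model samples. Points in 1 group share the scaling of their arrays.

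**Figure D2:**
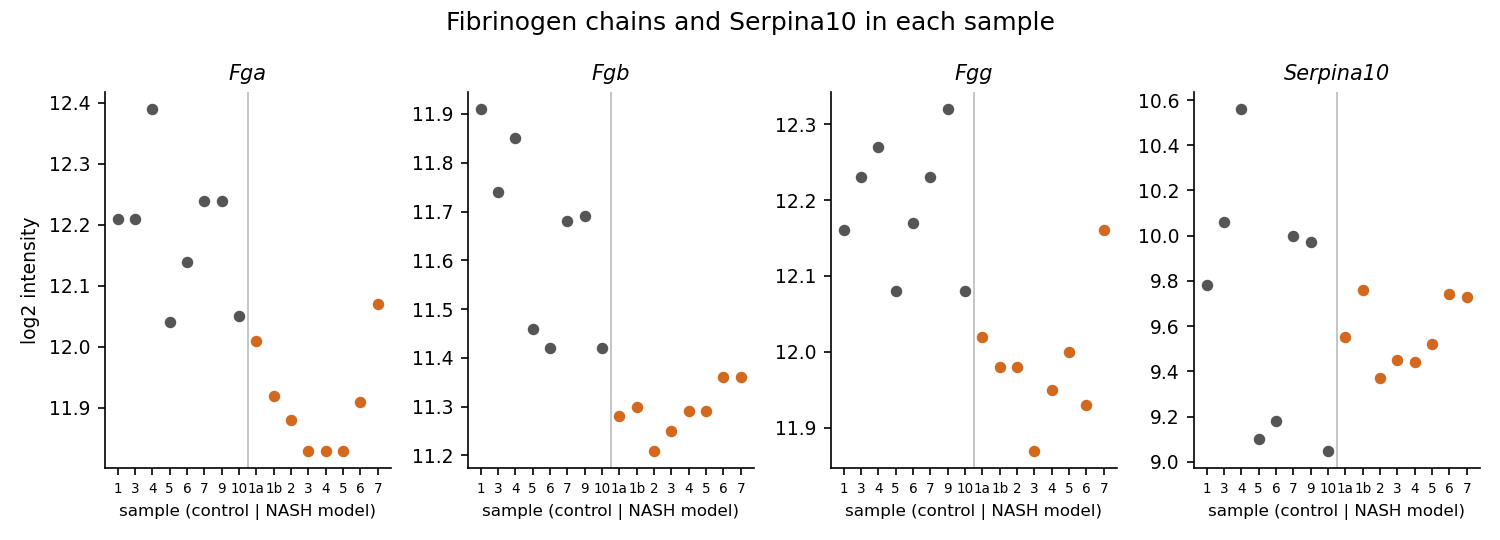
Log2 intensity of Fga, Fgb, Fgg and Serpina10 in each of the 8 control samples (grey, left of the line) and 8 NASH model samples (orange, right), by the number in their labels. Fgb does not overlap between groups, with 11.36 the highest NASH model value and 11.42 the lowest control value, and Serpina10 spreads from 9.05 to 10.56 among controls.

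F13b, the carrier subunit of factor XIII, ran from 7.98 to 8.24 in controls (median 8.04) and from 7.45 to 7.91 in the NASH model (median 7.79). Its groups did not overlap, and it fell by 20.3% (-0.33 ± 0.09, limma adjusted p = 0.0079). F13a1, the catalytic subunit, which is made by macrophages and megakaryocytes, was near background. Its values ran from 2.20 to 3.35 in controls and from 2.36 to 3.35 in the NASH model. In each group, 6 of 8 samples were below 2.89, a background level set by the olfactory and vomeronasal receptor genes, 95% of whose values lay under it. Of the 5 clot formation genes, 4 fell and F13a1 did not pass the test (0.13 ± 0.16, limma adjusted p = 0.59).

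The extrinsic and common pathway held both directions. F7, which encodes factor VII, the protease that tissue factor activates, ran from 8.30 to 8.86 in controls (median 8.49) and from 7.32 to 7.96 in the NASH model (median 7.75). Every NASH model sample was below every control, and F7 fell by 44.0% (-0.84 ± 0.11, limma adjusted p = 6.3e-06). F10, factor X, where the extrinsic and intrinsic arms meet, ran from 9.07 to 9.57 in controls (median 9.29) and from 8.51 to 9.08 in the NASH model (median 8.85). The groups overlapped by a margin of 0.01, and F10 fell by 28.3% (-0.48 ± 0.10, limma adjusted p = 0.0012). F7, F10 and Proz are neighbours in the genome with 0 protein-coding genes between them, and all 3 fell.

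F3, tissue factor, which starts coagulation on cells outside the bloodstream, ran from 3.82 to 4.39 in controls (median 4.16) and from 4.19 to 4.98 in the NASH model (median 4.43). It rose 1.25-fold (0.32 ± 0.11, limma adjusted p = 0.039), and the groups overlapped. This call was lost when any of control samples 1, 4, 5, 7 and 10 or NASH model samples 1a, 2, 4, 6 and 7 was left out, with adjusted p of 0.051 to 0.079 over these 10 fits. F2, prothrombin, had a difference of -0.14 ± 0.07 (95% confidence interval -0.29 to 0.02, limma adjusted p = 0.20). F5, the cofactor of factor X, had a difference whose interval ran from -0.15 to 0.14 (limma adjusted p = 0.99). Neither passed the test.

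In the contact and intrinsic pathway, F9 and F11 fell and 4 of 6 measured genes did not pass. F9, which encodes factor IX, ran from 8.12 to 8.60 in controls (median 8.23) and from 7.25 to 7.98 in the NASH model (median 7.81). Its groups did not overlap, and it fell by 31.1% (-0.54 ± 0.11, limma adjusted p = 0.00063). F11, which encodes factor XI, the activator of factor IX, ran from 7.56 to 8.17 in controls (median 8.03) and from 7.17 to 7.77 in the NASH model (median 7.57). It fell by 28.2% (-0.48 ± 0.11, limma adjusted p = 0.0036), with overlapping groups. F8, the cofactor of factor IX, which is made by endothelial cells, ran from 6.19 to 6.80 in controls and from 5.68 to 6.45 in the NASH model (-0.31 ± 0.13, limma adjusted p = 0.076).

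F12, factor XII, the protease that starts contact activation, had values of 8.78 to 9.15 in controls and 8.65 to 8.87 in the NASH model (-0.15 ± 0.08, limma adjusted p = 0.16). Kng1 and Kng2 encode kininogens, the precursors of bradykinin and cofactors of contact activation. Kng1 had a difference of 0.06 ± 0.08 (95% interval -0.11 to 0.22, limma adjusted p = 0.66) and Kng2 of -0.12 ± 0.09 (-0.31 to 0.07, limma adjusted p = 0.38). These paralogs are close in sequence, and their probe sets may cross-hybridise. Hrg, Kng2 and Kng1 are also neighbours with 0 protein-coding genes between them, and of these only Hrg fell at the adjusted threshold.

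**Figure D3:**
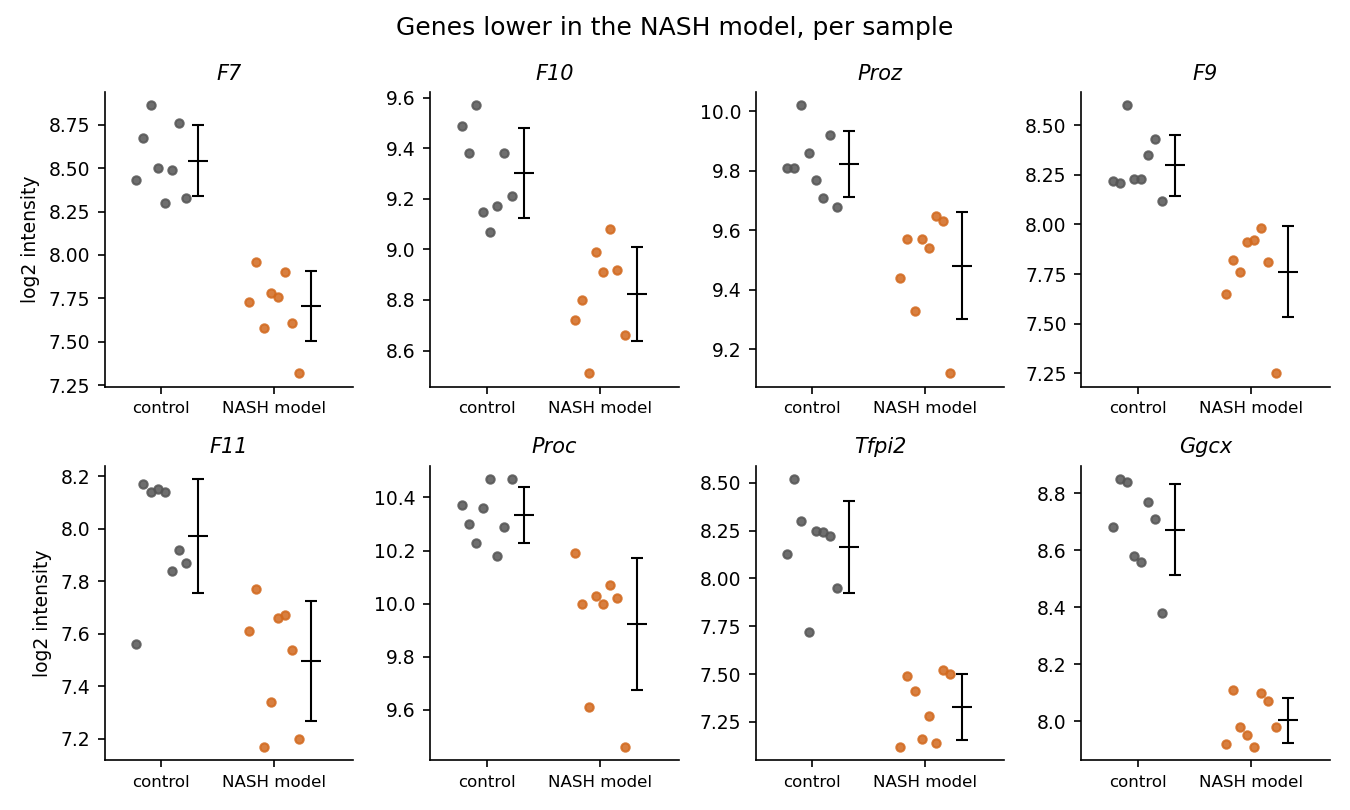
Log2 intensity per sample of 8 genes that fell, in 8 control samples (grey) and 8 NASH model samples (orange), with the group mean and SD in black. F7, F9, Proz, Tfpi2 and Ggcx do not overlap between groups, while F10 (control low 9.07, NASH model high 9.08), F11 and Proc do.

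Of the 10 genes listed as natural anticoagulants, Proc, Proz and Tfpi2 fell, Procr rose and 6 did not pass. Tfpi2 was placed here by its family and inhibits plasmin too. Proc, which encodes protein C, the protease that inactivates factors V and VIII, ran from 10.18 to 10.47 in controls (median 10.33) and from 9.46 to 10.19 in the NASH model (median 10.01). It fell by 24.7% (-0.41 ± 0.10, limma adjusted p = 0.0054), and the groups overlapped. Proz, protein Z, the cofactor of the inhibitor that Serpina10 encodes, ran from 9.68 to 10.02 in controls (median 9.81) and from 9.12 to 9.65 in the NASH model (median 9.56). Its groups did not overlap, and it fell by 21.1% (-0.34 ± 0.09, limma adjusted p = 0.0072).

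Tfpi2, a Kunitz-type inhibitor of plasmin and other serine proteases, ran from 7.72 to 8.52 in controls (median 8.23) and from 7.12 to 7.52 in the NASH model (median 7.35). Every NASH model sample was below every control, and it fell by 44.1% (-0.84 ± 0.11, limma adjusted p = 7.9e-06). It was the 1 member assigned to other cells that fell. Its control mean of 8.17 was the highest of that group, whose median was 3.68, and its cell source was not checked in these samples. Its paralog Tfpi, the inhibitor of the tissue factor and factor VII complex, ran from 4.45 to 5.67 in controls and from 4.89 to 5.38 in the NASH model (0.08 ± 0.14, 95% interval -0.21 to 0.37, limma adjusted p = 0.74).

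Procr encodes the endothelial receptor that presents protein C for activation. It ran from 2.17 to 3.58 in controls (median 2.87) and from 3.56 to 4.79 in the NASH model (median 4.17), with 4 of 8 controls below 2.89. It rose 2.45-fold (1.29 ± 0.21, limma adjusted p = 8.6e-05), and 7 of 8 NASH model samples were above the highest control. Thbd, thrombomodulin, the partner of thrombin in protein C activation, ran from 3.67 to 4.86 in controls and from 3.93 to 4.67 in the NASH model (0.14 ± 0.16, limma adjusted p = 0.59). Thus ligand and receptor moved in opposite directions, Proc down and Procr up, while Thbd did not pass the test.

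The serpins that inhibit thrombin and its relatives did not pass. Serpinc1, antithrombin, had a difference of -0.13 ± 0.07 (95% interval -0.27 to 0.01, limma adjusted p = 0.19). Serpind1, heparin cofactor II, ran from 10.71 to 10.88 in controls and from 10.39 to 10.78 in the NASH model (-0.19 ± 0.08, limma adjusted p = 0.077), and without NASH model sample 7 it was called lower (adjusted p = 0.05 after rounding). Serpina10 had a difference of -0.14 ± 0.18 (-0.53 to 0.24, limma adjusted p = 0.63). Pros1, protein S, the cofactor of protein C, had a difference of 0.21 ± 0.14 (-0.07 to 0.50, limma adjusted p = 0.29).

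All 6 measured genes of fibrinolysis passed the test. The activators and the urokinase receptor were higher, and plasminogen, its binding protein Hrg and the plasmin inhibitor Serpinf2 were lower. Plau, which encodes urokinase, a plasminogen activator that acts at cell surfaces, ran from 1.78 to 2.54 in controls (median 2.33) and from 4.77 to 5.57 in the NASH model (median 4.98). All 8 controls were below the background level of 2.89, so the change has only a lower bound, at least 4.48-fold higher against that level. The fitted difference was 2.79 ± 0.13 (limma adjusted p = 5.6e-12). Plaur, the receptor that holds urokinase at the cell surface, ran from 1.80 to 3.61 in controls (median 2.67) and from 4.55 to 5.19 in the NASH model (median 4.99). It rose 4.99-fold (2.32 ± 0.19, limma adjusted p = 2.5e-08), with 7 of 8 controls below 2.89, so that fold depends on values near background.

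Plat, which encodes tissue plasminogen activator, ran from 2.50 to 4.03 in controls (median 3.14) and from 4.23 to 5.07 in the NASH model (median 4.97). It rose 3.03-fold (1.60 ± 0.19, limma adjusted p = 2.6e-06), with 2 of 8 controls below 2.89. For Plau, Plaur and Plat, every NASH model sample was above every control.

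**Figure D4:**
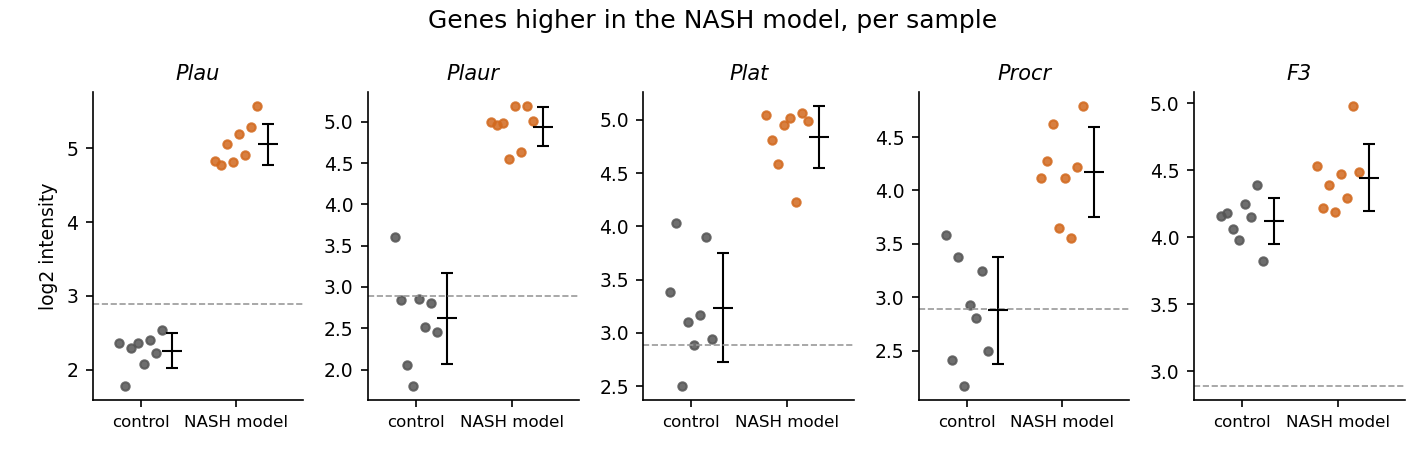
Log2 intensity per sample of the 5 genes that rose, in 8 control samples (grey) and 8 NASH model samples (orange), with the group mean and SD in black. The dashed line, where drawn, is the background level of 2.89. All 8 controls of Plau and 7 of 8 controls of Plaur lie under it, and the F3 groups overlap.

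Plg, which encodes plasminogen, the precursor of plasmin, ran from 11.36 to 11.61 in controls (median 11.46) and from 11 to 11.35 in the NASH model (median 11.27). It fell by 15.5% (-0.24 ± 0.08, limma adjusted p = 0.029), and its groups did not overlap. The call was lost without control sample 3 or 4 or NASH model sample 2 or 3, with adjusted p of 0.053 to 0.06. Serpinf2, which encodes the main plasmin inhibitor of plasma, ran from 10.60 to 10.86 in controls (median 10.67) and from 10.04 to 10.56 in the NASH model (median 10.41). It fell by 20.2% (-0.32 ± 0.09, limma adjusted p = 0.0079), without overlap.

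Hrg, histidine-rich glycoprotein, which binds plasminogen and heparin, ran from 11.10 to 11.35 in controls (median 11.26) and from 10.71 to 11.17 in the NASH model (median 11.01). It fell by 16.3% (-0.26 ± 0.09, limma adjusted p = 0.035). The call was lost without any of control samples 1, 3, 4, 7 and 9 or NASH model samples 1a, 1b, 2 and 7, with adjusted p of 0.053 to 0.072 over these 9 fits. Without NASH model samples 2 and 7 together, adjusted p was 0.15 for Hrg and 0.10 for Plg. With samples 1a and 1b averaged, it was 0.051 for Hrg.

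Ggcx encodes the carboxylase that modifies the vitamin K-dependent factors. It ran from 8.38 to 8.85 in controls (median 8.69) and from 7.91 to 8.11 in the NASH model (median 7.98). Every NASH model sample was below every control, and it fell by 37.0% (-0.67 ± 0.08, limma adjusted p = 4.4e-06). Vkorc1, the reductase that recycles vitamin K and the target of warfarin, ran from 9.89 to 10.16 in controls and from 9.65 to 9.91 in the NASH model (-0.18 ± 0.07, limma adjusted p = 0.093). Of the 7 plasma proteins on the list that this carboxylase modifies, F7, F9, F10, Proc and Proz fell, and F2 and Pros1 did not pass. Their median log2 fold change was -0.41.

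Among the NASH model samples, the falls were in most of these genes deepest in sample 2 or 7. Of the 13 hepatocyte members that fell, sample 7 had the lowest value in 6 and sample 2 in 5, and these were the 2 lowest samples in 7 of the 13. The median deviation of these 13 genes from the NASH model mean was -0.27 in sample 7 and -0.16 in sample 2, beside 0.17 in sample 5. In Fga (12.07) and Fgg (12.16), by contrast, sample 7 was the highest NASH model sample, while Fgb was lowest in sample 2 (11.21). Without samples 2 and 7, 13 of the 34 members were called lower and 4 higher, and 10.8% of all genes were called lower. F9 was lowest in sample 7, at 7.25, and it was called lower also without samples 2 and 7. Samples 7 and 2 also had the lowest array weights of the NASH model group, 0.761 and 0.962, beside 1.013 to 1.44. An array weight is lower when a sample's values stray more from its group. The controls had 0.731 to 0.987. The part of array quality in this pattern was not tested.

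Another 3 lists of genes that act on this system were read in the same fit, which called 13.2% of all genes higher and 13.4% lower. Of 35 genes that regulate coagulation or carry its factors, 33 were measured, 9 rose and 7 fell, with a median of -0.01. The largest rises were those of Prrg4, a membrane protein carboxylated with vitamin K (2.67 ± 0.17, limma adjusted p = 6e-10), and Thbs1, thrombospondin 1 (2.38 ± 0.25, 5e-07). Of their 8 controls, 7 and 4 were below the background level of 2.89, so both sizes rest on values near background. Nqo1, a quinone reductase able to reduce vitamin K (2.11 ± 0.19, 1e-07), and Anxa5, annexin A5, which covers exposed phosphatidylserine (1.87 ± 0.09, 6e-12), also rose. Adamts13, the protease that cuts von Willebrand factor, fell (-0.51 ± 0.14, limma adjusted p = 0.012), though not past the threshold with the values as deposited (0.052), spike-in centring (0.19), a clock score as a covariate (0.16) or the sample number as a block (0.053). Vwf itself had a difference of 0.06 ± 0.17 (limma adjusted p = 0.84). Chosen after their values were seen, Lman1, the cargo receptor that carries factors V and VIII out of the endoplasmic reticulum, fell (-0.46 ± 0.07, limma adjusted p = 7.6e-05). Gas6, a vitamin K-dependent growth factor, rose (1.33 ± 0.28, limma adjusted p = 0.0012), but not past the threshold with a clock score as a covariate (0.11).

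Of 16 partners of the plasminogen system, 13 were measured, 5 rose and 3 fell, with a median of 0.01. Anxa2, which binds plasminogen and its tissue activator at the cell surface, rose most (3.29 ± 0.14, limma adjusted p = 2.2e-12). Mrc2, a collagen receptor that associates with the urokinase receptor (2.01 ± 0.20, 3.4e-07), St14, the membrane protease matriptase (1.22 ± 0.24, 0.00056), and Plgrkt, a plasminogen receptor (1.02 ± 0.14, 1.9e-05), rose as well. For Mrc2, 6 of 8 controls were below 2.89, and for St14 3 were, so these sizes rest in part on values near background.

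Of 17 transcription factors that act in hepatocytes, 16 were measured, 12 fell and 1 rose, with a median of -0.50. Nr0b2, a repressor of bile acid synthesis, fell most (-1.37 ± 0.16, limma adjusted p = 2e-06), and Foxa2 fell by a log2 fold change of -0.76 ± 0.14 (0.00027). Onecut1 fell (-0.77 ± 0.25, limma adjusted p = 0.029), but not past the threshold when control sample 1, 3, 4 or 9 or NASH model sample 2, 4 or 7 was left out, with adjusted p of 0.05 to 0.061. Dbp, an output gene of the circadian clock, rose (1.31 ± 0.26, limma adjusted p = 0.0008). Chosen after their values were seen, because their binding motifs were searched above, Hnf4a fell (-0.66 ± 0.10, limma adjusted p = 5.4e-05) and Cebpa fell (-0.67 ± 0.10, 2.4e-05). Cebpb of the same list did not pass (-0.29 ± 0.13, limma adjusted p = 0.1), and Stat3 fell less (-0.37 ± 0.13, limma adjusted p = 0.044). The HNF4 element was in 0 of the 27 members searched. No test linked these factors to the members.

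**Figure D5:**
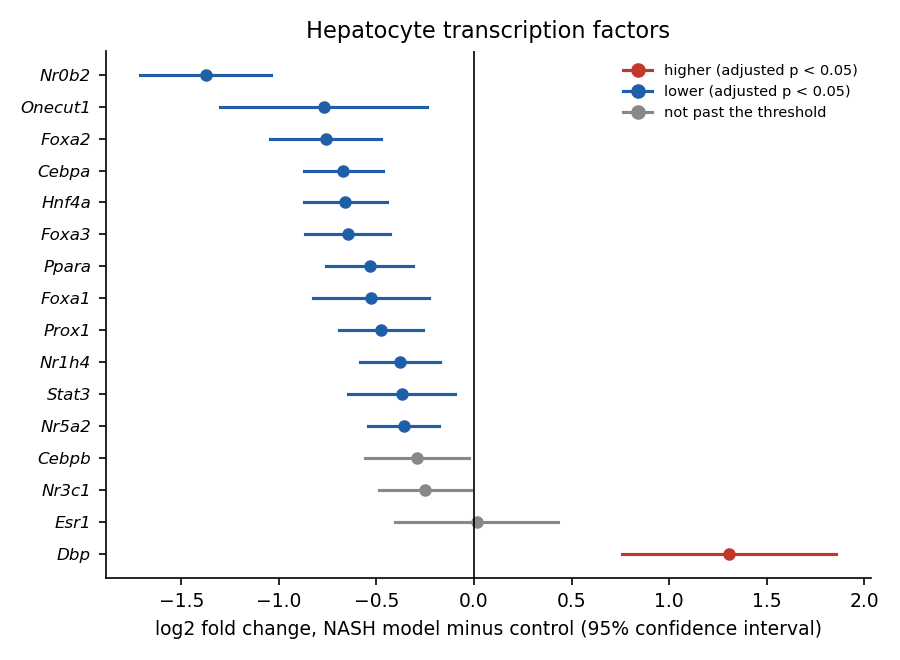
Log2 fold change (NASH model minus control) with 95% confidence intervals for the 16 measured hepatocyte transcription factors, 8 samples per group. Of these, 12 lie below 0 and passed the test, and Dbp at 1.31 is the 1 that rose.

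Clock gene levels also differed between the samples. A score over 16 measured clock genes ran from -3.61 to 2.55 in controls and from 1.05 to 2.38 in the NASH model. Among controls only sample 5, at 2.55, reached the NASH model range, and the next highest, sample 4, had 0.596. The score thus went largely with the group, so a fit with both can hardly separate them and its SEs widen. With this score as a covariate, 8 members were called lower and 4 higher. Over all genes, 2780 were then called in place of 5196, with 6.43% lower. The falls of Fga, Fgb, Fgg, Proc, Plg, Serpinf2 and Hrg and the rise of F3 were no longer past the threshold, with limma adjusted p from 0.051 for Serpinf2 to 0.41 for Fgg. The SE of each rose, while the log2 fold change went from -0.35 to -0.34 for Fgb, from -0.41 to -0.45 for Proc, from -0.32 to -0.39 for Serpinf2, from -0.26 to -0.29 for Hrg and from 0.32 to 0.47 for F3. For Fga it went from -0.28 to -0.25, for Plg from -0.24 to -0.23 and for Fgg from -0.21 to -0.15. Dbp is itself a gene of the score, so its own value in that fit says nothing. The part of the time of collection in the falls was not tested.

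Alongside the members that rose, most listed markers of recruited macrophages, of stellate cells and myofibroblasts and of cholangiocytes rose too. For the marker counts here and below, the shares over all genes were 13.2% called higher and 13.4% lower. The summed level of 13 measured recruited macrophage markers ran from 8.54 to 9.12 in controls and from 12.18 to 12.80 in the NASH model, and 12 of the 13 rose, Mmp12 by 8.26 ± 0.17 and Gpnmb by 7.51 ± 0.19. Of 12 markers of stellate cells and myofibroblasts, 10 rose, among them Lum (3.03 ± 0.14) and Col3a1 (2.95 ± 0.26), and their summed level went from 9.98 to 10.33 in controls to 11.44 to 12.08. Of 9 cholangiocyte markers, 6 rose, with Tspan8 at 2.70 ± 0.45 and Muc1 at 2.28 ± 0.33 (7.01 to 7.82 against 6.95 to 9.45). Of 9 neutrophil markers, Csf3r (1.30 ± 0.25) and S100a8 (1.11 ± 0.31) rose, while 7 did not pass, and 4 of the 9 had a difference below 0. Their summed level overlapped between the groups (5.98 to 7.39 against 6.94 to 7.60), and 1 marker was below 2.89 in all samples. Of 8 controls, 4 were below 2.89 for Mmp12 and Gpnmb, 7 for Tspan8 and S100a8 and 2 for Muc1, so these sizes depend on values near background. S100a8 was not called without NASH model samples 2 and 7 (limma adjusted p = 0.058).

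Resident Kupffer cell markers went the other way, with 4 of 8 lower, Cd163 (-2.84 ± 0.13) and Timd4 (-2.0 ± 0.25, 5 of 8 NASH model samples below 2.89) most, and 1 higher (9.24 to 10.43 against 9.25 to 10.09). Of 12 endothelial markers, 5 fell, with Oit3 and Kdr each at -0.70, and 2 rose (10 to 10.48 against 9.77 to 10.18). Of 10 platelet and megakaryocyte markers, Pf4 rose (0.69 ± 0.17) while 2 fell (7.14 to 7.50 against 6.97 to 7.27). Ppbp was below 2.89 in all NASH model samples and 1 marker was below it in all samples.

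Hepatocyte markers were read beside the members that fell. Their summed level over 17 genes ran from 15.84 to 15.89 in controls and from 15.84 to 15.93 in the NASH model. That sum is set mostly by genes near 12.67, the brightest value tested, such as Alb, albumin, with means of 12.62 and 12.64, where the scale may not resolve a change. Of the 17, 4 fell and 0 rose at the adjusted threshold, where 13.4% of all genes were called lower. Without the dimmest 40% of genes, a closer reference for these bright markers, 23.5% of genes were called lower. The 4 markers that fell were Fah (-0.41 ± 0.08), Asgr2 (-0.35 ± 0.12) and, named after their values were seen, Asgr1 (-0.31 ± 0.08) and Hpd (-0.27 ± 0.07). By sign alone, 10 of the 17 were above 0 and 7 below. Every NASH model sample lay below every control in 3 (3.89% of all genes) and above every control in 2 (5.65% of all genes). These 2, also named afterwards, were Apob (0.18 ± 0.07, limma adjusted p = 0.052) and Ahsg (0.17 ± 0.07, 0.059). Asgr2 was not called without control sample 1, 5, 6 or 10 or NASH model sample 2, 3, 4 or 7, with limma adjusted p of 0.051 to 0.082. Among the members themselves, the 13 hepatocyte genes with a mean level of 10 or more had a median log2 fold change of -0.21 and the 9 under 10 had -0.34, a split chosen after the values were seen. The part of hepatocyte number, and that of the other cell types, in the changes of the clotting genes was not tested.

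The scaling of the arrays moved the number of falls. Against 15 called lower after quantile normalization, 20 were called lower with each array centred on its median. With spike-in centring, on 18 hybridization control probe sets, 7 were called lower. The number called higher was 5 in each. Over all genes, 13.4% were called lower after quantile normalization, 18.7% with median centring and 6.04% with spike-in centring, so the all-gene share moved the same way. Of all calls, 49.6%, 39.2% and 73.7% were higher in that order, with all-gene medians of -0.04, -0.12 and 0.06. Relative to the all-gene median, the members' median was -0.14, -0.15 and -0.15, and 23 of 34 members lay below the all-gene median under each. The genes not called with spike-in centring were Fga, Fgg, F13b, Proc, Proz, Plg, Serpinf2 and Hrg, with limma adjusted p from 0.060 for Proc to 0.25 for Fgg.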

How the data were processed

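Total RNA of 16 liver biopsies was isolated with TRIzol and labelled with biotin for arrays of 1 colour, per the labels' protocols. The authors deposited log2 intensity values for 29129 probe sets, from 0.62 to 12.74, with column medians of 3.52 to 3.66. Their summarisation and normalisation were not given in the sources used here. The number of arrays limits the precision.

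The values were quantile normalised, which moved none by more than 0.159. By the platform annotation, 19572 probe sets carried 1 gene symbol, 0 carried several and 9557 carried none, which gave 19505 genes. No dim genes were removed. The background level of 2.89 is the 95th percentile of 1412 olfactory and vomeronasal receptor genes. Groups were compared with limma 3.58.1 in R 4.3.3 (lmFit and eBayes, group as the only term, two-sided) and Benjamini-Hochberg adjustment over all genes. Correlations used scipy 1.17.1 (Python 3.11.15, with numpy 2.4.6 and pandas 2.3.3), data.table, version 1.17.8, read the tables and matplotlib 3.10.9 drew the figures. The fit was tested on simulated data.

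All measured members are named, with the 4 largest called changes of each of 3 pathway lists, Vwf and Adamts13 whatever their values, and the 2 largest of each of 8 cell type lists. A summed level is log2 of the sum of a list's linear intensities, so bright genes weigh most. The members and lists were chosen with earlier results of these data known. Samples 1a and 1b differed with an SD of 0.387, within the 0.34 to 0.466 of the other 27 NASH model pairs, and were kept as 2 samples, though the labels do not say whether they share an animal. Alternatives covered scaling, dim genes, probe sets, variance model, array weights, left-out samples, a clock score and a replicate block. RefSeq promoters are of GRCm38.p6.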

Additional observations from a re-analysis of the deposited data

Results flagged for a closer look

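Each of the 34 measured members was checked in both groups for a sample far from the others, by the gap to its nearest neighbour over the group's range. With 8 samples, chance alone would mark about 1 group in 20. F9, factor IX, in NASH model sample 7 was 7.25, beside 7.65 to 7.98 in the others. F3, tissue factor, in NASH model sample 6 was 4.98, beside 4.19 to 4.53, and without that sample its call was lost. F2, prothrombin, in control sample 1 was 11.21, beside 10.92 to 11.04. Serpinf2, the plasmin inhibitor, in control sample 4 was 10.86, beside 10.60 to 10.73.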

How the results depend on the processing

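No member that passed the test changed direction in any of the 28 alternatives. The number of members called lower was 7 with spike-in centring and 8 with the clock score, against 15, and it was 12 to 15 when single samples were left out. With samples 1a and 1b averaged it was 13, Fgg and Hrg no longer passing. Members called higher stayed at 4 or 5. The members' median log2 fold change was -0.27 with median centring, -0.10 with spike-in centring and -0.22 with the clock score. Coagulation regulators called higher fell from 9 to 5 with the clock score, and those called lower from 7 to 4 with spike-in centring and to 4 with the clock score. Plasminogen partners called lower went from 3 to 5 with median centring, and hepatocyte transcription factors called higher from 1 to 0 with the clock score, as its construction sets, since the 1 gene is Dbp and Dbp is part of that score. Of the fibrinogen correlations, Fga and Fgb in the NASH model passed with median centring (r = 0.75), cyclic loess (0.89) and spike-in centring (0.98), and Fgb and Fgg with cyclic loess (0.79) and spike-in centring (0.97). In controls, Fga and Fgb had r = 0.72 with spike-in centring, which did not pass. The members marked for 1 sample far from the rest were 2 rather than 4 with the values as deposited, median centring, cyclic loess or spike-in centring. The cause of these shifts was not tested.

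Control and NASH model samples of the same number correlated at -0.026 to 0.059 in their deviations from the group means over all genes. Samples of different numbers were not compared, so these values cannot decide whether the numbers pair the samples. With the number as a replicate block, 4 members were called higher and 10 lower, and the members' median was -0.19. Of all genes, 3924 were then called, against 5196. Signal near background limits Plau, Plaur, Plat, Procr, F13a1, Prrg4, Thbs1, Mrc2, Tspan8 and S100a8.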
